A study of Mus musculus with 6 samples.

Results

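The TNF superfamily of ligands and receptors was followed in whole lungs of mice given bleomycin by intratracheal injection. Members were the rows of the count table whose symbol begins with *Tnfsf* or *Tnfrsf*, together with *Tnf*, *Lta*, *Ltb*, *Ltbr*, *Fas*, *Fasl*, *Cd27*, *Cd70*, *Cd40* and *Cd40lg*. The rule found 42 of 26100 rows: 17 ligands, 24 receptors and *Tnfsfm13*, a readthrough locus that joins exons of *Tnfsf12* and *Tnfsf13*. The KO group was 3 mice lacking *Clec7a*, which encodes the beta-glucan receptor dectin-1 of myeloid cells, and the WT group was 3 wild-type mice. Both groups had bleomycin, a DNA-damaging drug that injures the alveoli and leads to scarring, and lungs were taken at day 14. Uninjured lungs were not analysed here, and the sources used here give no knockout allele, strain, age or sex. The comparison asks how the lung transcriptome differs between the genotypes in this fibrosis model.

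TNF superfamily ligands are mostly trimeric membrane proteins, some of them released by proteases. Their receptors fall into those with a cytoplasmic death domain, which can recruit caspases, and those that bind TRAF adaptors and switch on NF-kB. Decoy receptors bind a ligand and cannot pass on its death signal. In the lung, family members direct the survival of lymphocytes, the co-stimulation of T cells, the death of epithelial cells and the response of stromal cells to injury.

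The libraries held 31052936 to 34451956 counts, of which 0.095% to 0.117% fell on the 42 members. *Clec7a* had 114, 230 and 92 counts in KO libraries, against 1974, 2732 and 6734 in WT libraries. Type 2 alveolar genes, which mark lung tissue, were abundant in every library: the summed level of 12 of them was 4214 to 22620 CPM in KO and 2296 to 11700 CPM in WT. CPM values are counts scaled to a common library size with TMM factors. The first replicates of both genotypes stood apart from the rest in some gene lists. Mesothelial genes had a mean log2 level, centred for each gene, of 1.44 in KO replicate 1 and 1.72 in WT replicate 1. The other libraries were at -1.12 to -0.35. In other lists the first replicates differed from each other, as for airway genes (-0.37 in KO and 1.81 in WT). Mitochondrial transcripts took 7.34% of the counts of KO replicate 1 against 2.69% to 3.87% in the other 5 libraries. Log2 fold changes that the first replicates move by over 1.5 times are therefore also given without both.

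Among the members, the receptor gene *Tnfrsf25* and the ligand genes *Tnfsf13b* and *Ltb* were higher in KO lungs and the decoy receptor gene *Tnfrsf23* was lower, by DESeq2. edgeR's quasi-likelihood test, the main test, called 0 of 39 tested members after Benjamini-Hochberg adjustment over the 16633 genes tested, and 0% of all genes. It also did not call *Clec7a*, the gene that KO mice lack (adjusted p 0.203 by edgeR and 1.52e-14 by DESeq2). Thus 0 calls by edgeR are not evidence that the genes did not differ. At an unadjusted p under 0.05 edgeR had 8 members, which is 20.5% of the 39 beside 11.8% of all genes. Of these 4 were higher and 4 lower, beside 5.95% of all genes higher and 5.89% lower. DESeq2 called 4 members at an adjusted p under 0.05, 9.76% of the 41 it gave an adjusted p, beside 3.63% of all such genes (1.91% higher and 1.73% lower). The KO and WT libraries did not overlap for 12 members, 6 in each direction, or 30.8% beside 21.1% of all genes (9.81% higher and 11.3% lower). With both first replicates left out, 13 members had an unadjusted p under 0.05 by edgeR, 34.2% of 38 beside 30% of all genes, and with the replicate number as a block there were 11, beside 20.4% of all genes. No test of the list as a whole was made. The untested members were *Cd40lg*, *Cd70* and *Tnfrsf17*, which fell under the low-count filter of 0.303 CPM in 3 libraries. *Tnfsf4* passed that filter through the WT libraries alone, so its difference was partly built in. Of the other 38 members, 7 (18.4%) had an unadjusted p under 0.05 by edgeR and 11 (28.9%) had no overlap. The plot of fold changes by role shows both directions among the co-stimulatory ligands and within each receptor role of more than 1 gene except the decoys.

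**Figure D1:**
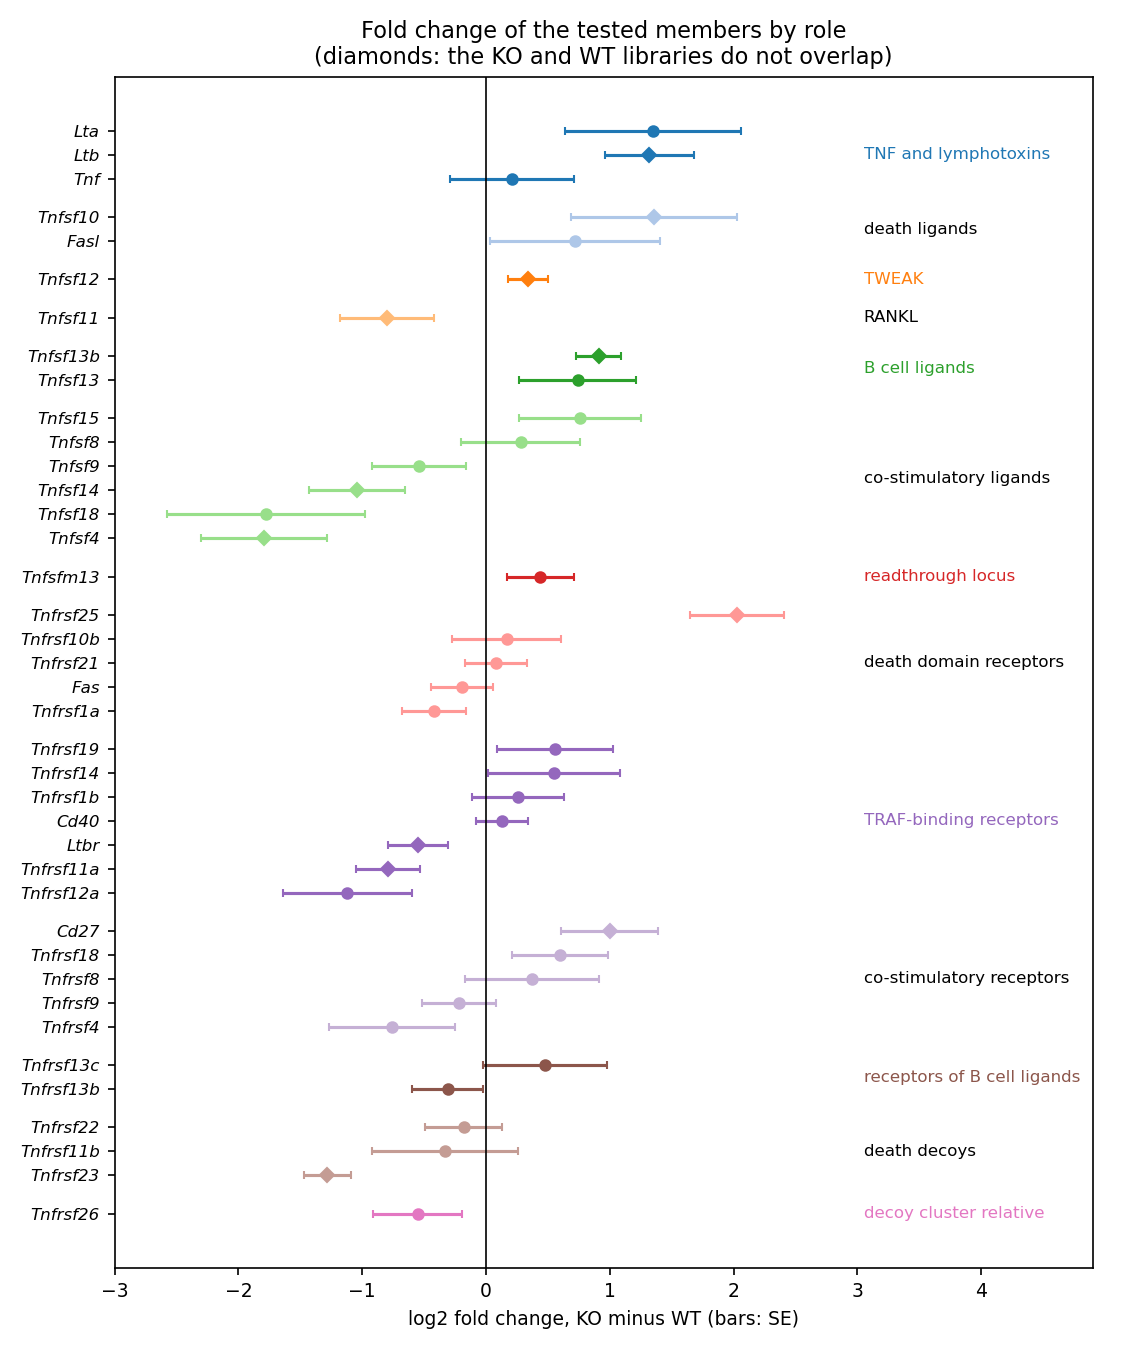
Log2 fold change (KO minus WT, x axis) with its SE for the 39 tested members, grouped by role down the page; diamonds mark the 12 members whose KO and WT libraries do not overlap. The values run between 2.03 for *Tnfrsf25* and -1.79 for *Tnfsf4*.

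Promoter sequences of the 4 genes that DESeq2 called are shown because these genes had the smallest p of the family. Each runs 5′ to 3′ over 250 bases before and 50 bases after a RefSeq start (GRCm38.p6). Capitals mark matches, on either strand, to the kappa-B consensus of NF-kB, to a pair of GAAA separated by any 2 bases (the core of interferon response elements) or to TGANTCA (the AP-1 element). *Tnfsf13b* and *Tnfrsf25* each have 2 starts in the table, and the start whose window holds more matches is printed.
*Tnfrsf23*, chr7:143685826-143686125, minus strand: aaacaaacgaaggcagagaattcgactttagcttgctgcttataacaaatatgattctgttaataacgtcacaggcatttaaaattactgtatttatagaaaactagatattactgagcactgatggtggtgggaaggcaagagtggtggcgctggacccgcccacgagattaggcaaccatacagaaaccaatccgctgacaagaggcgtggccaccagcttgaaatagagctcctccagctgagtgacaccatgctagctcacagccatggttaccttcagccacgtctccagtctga
*Tnfrsf25*, chr4:152116093-152116392, plus strand: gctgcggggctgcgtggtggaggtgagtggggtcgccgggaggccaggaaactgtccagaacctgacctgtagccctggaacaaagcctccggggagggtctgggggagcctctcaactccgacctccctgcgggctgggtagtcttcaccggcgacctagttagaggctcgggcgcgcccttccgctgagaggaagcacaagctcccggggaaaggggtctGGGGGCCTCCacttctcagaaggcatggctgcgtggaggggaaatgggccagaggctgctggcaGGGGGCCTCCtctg
*Tnfsf13b*, chr8:10006383-10006682, plus strand: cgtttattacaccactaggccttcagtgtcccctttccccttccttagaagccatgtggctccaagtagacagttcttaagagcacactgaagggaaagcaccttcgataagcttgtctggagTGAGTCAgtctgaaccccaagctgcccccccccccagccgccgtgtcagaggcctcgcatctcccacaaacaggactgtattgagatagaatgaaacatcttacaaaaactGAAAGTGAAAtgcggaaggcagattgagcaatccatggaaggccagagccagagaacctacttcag
*Ltb*, chr17:35194257-35194556, plus strand: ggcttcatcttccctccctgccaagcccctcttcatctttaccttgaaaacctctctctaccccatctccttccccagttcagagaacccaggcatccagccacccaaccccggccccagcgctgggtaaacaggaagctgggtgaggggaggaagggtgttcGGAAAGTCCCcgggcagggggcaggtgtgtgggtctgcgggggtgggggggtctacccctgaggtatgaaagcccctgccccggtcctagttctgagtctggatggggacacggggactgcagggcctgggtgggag
The *Ltb* window has 1 kappa-B match and the *Tnfrsf25* window has 2, both with the same letters. The *Tnfsf13b* window has 1 GAAA pair and 1 TGANTCA match, and the *Tnfrsf23* window has none of the 3 motifs. These counts depend on the start chosen. The *Tnfrsf25* window not printed has none of the 3 motifs, and the *Tnfsf13b* window not printed has 1 TGANTCA match and no GAAA pair. Of 42 members 32 had a promoter in the table, 36 windows in all. The kappa-B consensus was in 11.1% of these windows and in 8.46% of all 32841 promoters of that length. The GAAA pair was in 4 of the members' 36 windows (11.1%) and 3.44% of all. TGANTCA was in 7 of the members' windows (19.4%) and 7.81% of all. Those 7 windows belong to 6 genes, since the 2 *Tnfsf13b* windows overlap and hold the same match. These differences were not tested. A match is a run of letters and not a measured binding site.

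*Ltb*, *Tnf* and *Lta* lie side by side on chromosome 17, with gaps of 3.06 and 1.16 kb. *Ltb*, the membrane chain of the lymphotoxin that builds lymphoid tissue, had 17.5, 18.8 and 10.3 CPM in KO libraries, against 4.48, 5.44 and 8.64 CPM in WT libraries. Every KO value lay above every WT value, 2.51-fold in the edgeR fit, and the log2 fold change was 1.32 ± 0.36 (SE), counted here and below as KO minus WT. Its adjusted p was 0.269 by edgeR and 0.0275 by DESeq2. The value was 1.05 when both first replicates were left out (edgeR adjusted p 0.155). *Lta*, the secreted lymphotoxin chain, was low: 13, 41 and 27 counts in KO libraries and 3, 14 and 15 in WT libraries. Its KO and WT values overlapped (log2 fold change 1.35 ± 0.71, edgeR adjusted p 0.513). *Tnf* itself, the family's founding inflammatory cytokine, had 4.04, 5.63 and 2.41 CPM in KO libraries, against 1.87, 3.23 and 5.37 CPM in WT libraries. Those ranges overlapped almost wholly, and the log2 fold change was 0.21 ± 0.50, or -0.09 with both first replicates left out.

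The receptors for these ligands were much more abundant per length than the ligands. *Tnfrsf1a*, the broadly expressed death domain receptor for TNF, averaged 81.0 ± 19.2 FPKM in KO and 103.9 ± 25.7 FPKM in WT, and *Tnf* averaged 2.40 ± 0.98 FPKM in KO and 2.02 ± 1.08 FPKM in WT (SD, n = 3 each). In CPM, *Tnfrsf1a* had 132.0, 197.7 and 201.0 in KO libraries against 178.4, 259.9 and 269.4 in WT libraries. The lowest value of each genotype was its first replicate, and the log2 fold change was -0.42 ± 0.26. *Tnfrsf1b*, the second TNF receptor, found mainly on leukocytes, had 163.6, 158.8 and 94.7 CPM in KO libraries and 67.4, 119.6 and 160.4 CPM in WT libraries. These overlapped, at 0.26 ± 0.37, or -0.14 with both first replicates left out. *Ltbr*, the stromal receptor for lymphotoxin and LIGHT, had 72.0, 100.8 and 106.5 CPM in KO libraries and 168.7, 124.3 and 117.0 CPM in WT libraries. All KO libraries were below all WT libraries for *Ltbr* (log2 fold change -0.55 ± 0.24, edgeR unadjusted p 0.0539, adjusted p 0.433). It was -0.21 when both first replicates were left out. *Cd27*, *Ltbr* and *Tnfrsf1a* lie 4.10 to 4.22 Mb from *Clec7a* on chromosome 6.

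**Figure D2:**
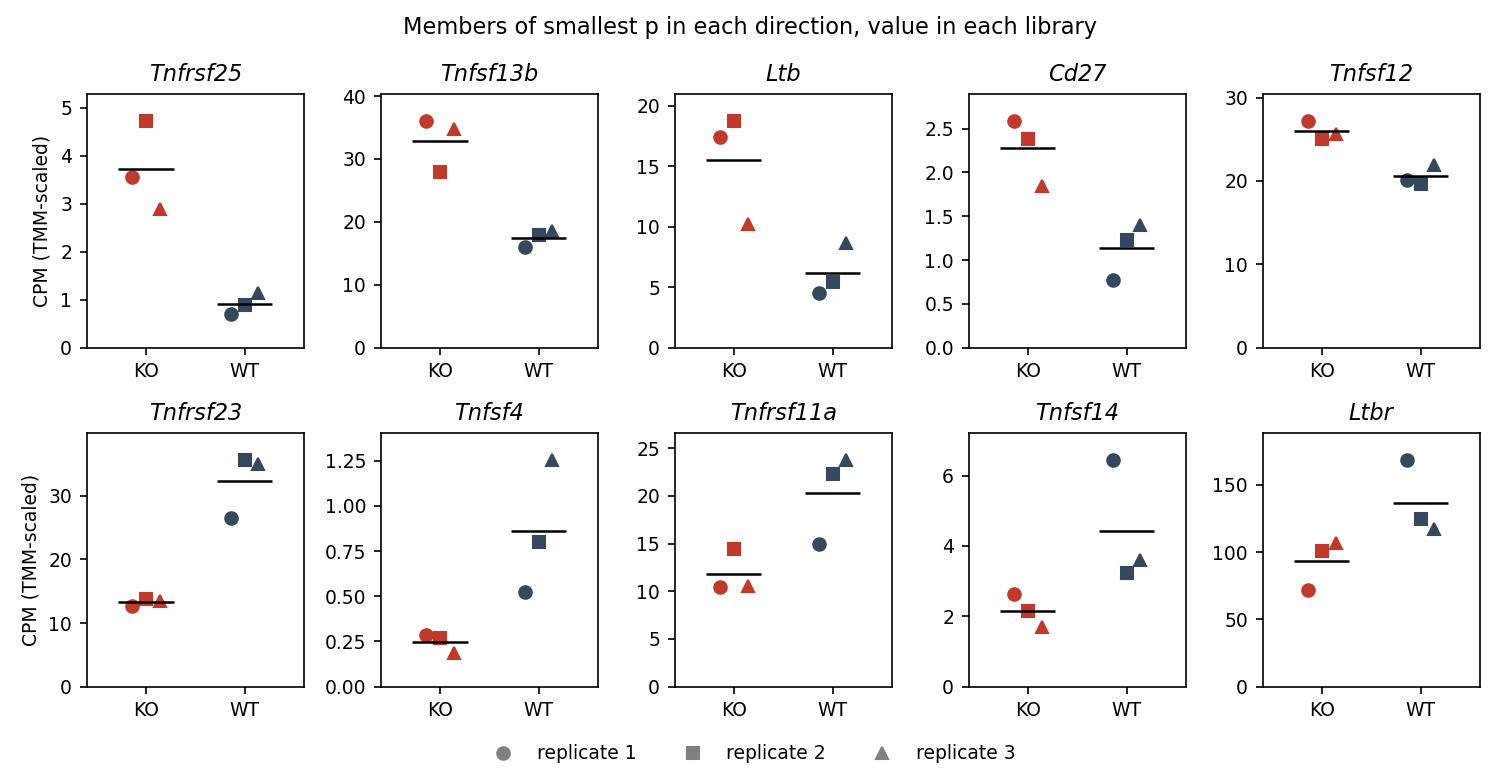
Level in CPM (y axis, from 0) in each KO and WT library for the 5 members of smallest p in each direction; symbols give the replicate and bars the mean of 3. In all 10 panels the KO and WT libraries do not overlap, which choosing members by small p favours. Over all genes the share without overlap is 21.1%. *Tnfsf4* passed the low-count filter through the WT libraries alone.

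*Tnfrsf23* and *Tnfrsf22* encode mouse decoy receptors for TRAIL that lack a working death domain, and *Tnfrsf11b* encodes osteoprotegerin, a soluble decoy for RANKL. *Tnfrsf23* had 12.6, 13.8 and 13.4 CPM in KO libraries, against 26.4, 35.7 and 34.9 CPM in WT libraries. The KO values were close together and all far below WT, 2.43-fold lower, with a log2 fold change of -1.28 ± 0.19. The adjusted p was 0.203 by edgeR and 3.18e-05 by DESeq2. With both first replicates left out, a fit added after seeing the data, edgeR gave -1.36 and an adjusted p of 0.0432. In that fit 30% of all genes had an unadjusted p under 0.05, beside 11.8% with all libraries. *Tnfrsf22* had 7.74, 10.3 and 7.86 CPM in KO libraries and 6.42, 11.8 and 11.2 CPM in WT libraries, with the KO range inside the WT range (-0.18 ± 0.31, or -0.33 with both first replicates left out). *Tnfrsf11b* ranged widely within each genotype, with 4.55, 19.7 and 12.0 CPM in KO libraries and 7.46, 18.4 and 19.6 CPM in WT libraries. The first replicate was lowest in both, and the log2 fold change was -0.33 ± 0.59. All 3 decoys had lower estimates, with a median of -0.33 beside -0.01 over all genes tested. DESeq2 called 1 of the 3, *Tnfrsf23*, beside 3.63% of all genes, so the count says little about the group. The direction turned in 3 of 16 alternative fits for *Tnfrsf22* and in 1 of 16 for *Tnfrsf11b*. Leaving out KO replicate 2 gave a decoy median of -0.87, and leaving out WT replicate 3 gave -0.10.

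The TRAIL decoy genes sit in a cluster on chromosome 7 with *Tnfrsf26*, a related receptor gene: gaps were 6.08 kb between *Tnfrsf26* and *Tnfrsf22* and 16.1 kb between *Tnfrsf22* and *Tnfrsf23*. *Tnfrsf23* spans 143665809 to 143685872 on the minus strand of GRCm38. *Tnfrsf26* had 11.7, 8.16 and 4.84 CPM in KO libraries and 10.2, 11.2 and 14.8 CPM in WT libraries, with 1 KO library inside the WT range (-0.55 ± 0.36). The value was -0.99 with both first replicates left out (edgeR unadjusted p 0.0254, adjusted p 0.121) and -0.28 without KO replicate 3. In GENCODE M21 transcripts, 18% of the 50-base stretches of *Tnfrsf23* also occur in *Tnfrsf22*, and 0 occur in *Tnfrsf26*. How the counting divided such shared reads is not stated by the sources used here, so the split between *Tnfrsf22* and *Tnfrsf23* is uncertain to that extent. The antisense gene E230032D23Rik covers 4.14% of the exon bases of *Tnfrsf23*.

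*Tnfsf10* encodes TRAIL, the death ligand that these decoys bind, and *Tnfrsf10b* its death receptor. *Tnfsf10* had 120.4, 92.0 and 93.4 CPM in KO libraries, against 8.23, 42.9 and 68.2 CPM in WT libraries. KO libraries were all above WT, but WT replicate 1 lay far below the others (log2 fold change 1.36 ± 0.67, edgeR adjusted p 0.489, DESeq2 adjusted p 0.292). With both first replicates left out it was 0.75. *Tnfrsf10b* had 10.8, 27.9 and 36.4 CPM in KO libraries and 17.5, 22.1 and 27.1 CPM in WT libraries, with the WT range inside the KO range (0.17 ± 0.44, or 0.39 with both first replicates left out). *Fasl*, the ligand by which cytotoxic lymphocytes kill, was near the filter at 18, 6 and 23 counts in KO libraries and 16, 6 and 7 in WT libraries. *Fas*, its death receptor, was abundant and overlapped: 38.4, 61.0 and 65.0 CPM in KO libraries, against 57.0, 73.2 and 58.1 CPM in WT libraries. Its log2 fold change was -0.19 ± 0.25, and -0.05 with both first replicates left out.

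*Tnfrsf25*, also called DR3, is a death domain receptor mainly of T cells and innate lymphoid cells. It had 3.57, 4.73 and 2.90 CPM in KO libraries, against 0.71, 0.89 and 1.14 CPM in WT libraries. The lowest KO library was above the highest WT library, 4.08-fold on average in the edgeR fit, with a log2 fold change of 2.03 ± 0.38. The adjusted p was 0.203 by edgeR and 1.48e-04 by DESeq2. Leaving out both first replicates gave 1.91 (edgeR adjusted p 0.0721). Its ligand *Tnfsf15*, or TL1A, had 3.41, 1.73 and 2.78 CPM in KO libraries and 0.77, 1.94 and 1.96 CPM in WT libraries. Those ranges overlapped, with 1 KO library below 2 WT libraries (0.76 ± 0.49, or 0.22 with both first replicates left out). The death domain receptor *Tnfrsf21*, or DR6, had a log2 fold change of 0.08 ± 0.25.

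*Tnfsf13b* encodes BAFF, the survival factor of B cells. It had 36.1, 27.9 and 34.8 CPM in KO libraries, against 16.03, 17.8 and 18.5 CPM in WT libraries. The groups were far apart, 1.88-fold, with a log2 fold change of 0.91 ± 0.18. The adjusted p was 0.216 by edgeR and 0.00551 by DESeq2, and with both first replicates left out the log2 fold change was 0.79 (edgeR adjusted p 0.0673). The libraries overlapped for its receptors. *Tnfrsf13c*, the BAFF receptor of B cells, had 1.48, 2.95 and 1.54 CPM in KO libraries and 0.77, 1.78 and 1.72 CPM in WT libraries. *Tnfrsf13b*, or TACI, had a log2 fold change of -0.31 ± 0.29, or -0.53 with both first replicates left out, and *Tnfrsf17*, the plasma cell receptor BCMA, had 4 to 8 counts in KO libraries and 5 to 8 in WT libraries.

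*Tnfsf13*, *Tnfsf12* and *Tnfsfm13* overlap on chromosome 11. *Tnfsfm13* shares 983 exon bases with *Tnfsf13* and 731 with *Tnfsf12*, 60% and 48.3% of their exon bases, so the division of reads among the 3 rows is uncertain. *Tnfsf13*, which encodes the plasma cell factor APRIL, had 19.2, 7.95 and 5.83 CPM in KO libraries and 6.05, 5.96 and 7.70 CPM in WT libraries. KO replicate 1 alone stood out, and without both first replicates the log2 fold change was 0.02, against 0.74 with them. *Tnfsfm13* had 56.8, 32.3 and 30.7 CPM in KO libraries and 29.1, 28.4 and 30.96 CPM in WT libraries, again with KO replicate 1 apart (0.44 ± 0.27, or 0.10 with both first replicates left out). *Tnfsf12*, which encodes TWEAK, a ligand active in tissue repair, had 27.2, 25.0 and 25.6 CPM in KO libraries and 20.2, 19.6 and 21.9 CPM in WT libraries. The small difference of 0.34 ± 0.16 (edgeR adjusted p 0.464) came without overlap.

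*Tnfrsf12a*, the TWEAK receptor Fn14 that is induced in injured epithelium and stroma, had the highest mean of all members per length, 69.9 ± 13.8 FPKM in KO and 142.2 ± 102.0 FPKM in WT (SD, n = 3 each). In CPM it had 69.6, 56.2 and 82.3 in KO libraries and 283.3, 93.0 and 75.2 in WT libraries. WT replicate 1 carried most of the difference: the log2 fold change was -1.12 ± 0.52, and -0.27 without both first replicates. *Tnfrsf19*, or TROY, had 28.4, 58.6 and 48.8 CPM in KO libraries and 13.2, 38.1 and 41.0 CPM in WT libraries, again with each first replicate lowest.

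RANKL and its receptor had lower estimates in KO. *Tnfsf11*, which encodes RANKL, the ligand known for osteoclast formation, had 33, 56 and 33 counts in KO libraries and 82, 57 and 77 in WT libraries. In CPM this was 1.04, 1.67 and 1.02 in KO libraries against 2.52, 1.75 and 2.25 in WT libraries, without overlap but with KO replicate 2 close to WT replicate 2 (log2 fold change -0.80 ± 0.38, edgeR adjusted p 0.469). *Tnfrsf11a*, which encodes its receptor RANK, had 10.4, 14.4 and 10.6 CPM in KO libraries and 14.9, 22.3 and 23.8 CPM in WT libraries. All KO values were lower, narrowly so against WT replicate 1 (-0.79 ± 0.26, edgeR unadjusted p 0.0207, adjusted p 0.335, DESeq2 adjusted p 0.171). It was -0.88 with both first replicates left out.

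The co-stimulatory ligands, by which antigen-presenting and other cells sustain T cells, had a median log2 fold change of -0.79 over 6 tested of 8, with 2 higher and 4 lower. Without *Tnfsf4*, whose p the filter partly fixed, the median of the other 5 was -0.54. *Tnfsf4*, the OX40 ligand, had 9, 9 and 6 counts in KO libraries and 17, 26 and 43 in WT libraries (-1.79 ± 0.51, edgeR unadjusted p 0.0111, adjusted p 0.281). *Tnfsf14*, which encodes LIGHT, had 2.62, 2.14 and 1.70 CPM in KO libraries and 6.45, 3.23 and 3.59 CPM in WT libraries. No KO library reached a WT value for either gene, and neither was called by edgeR or DESeq2 (*Tnfsf14* -1.04 ± 0.39, edgeR adjusted p 0.391). With both first replicates left out they were at -2.15 and -0.82. *Tnfsf18*, the GITR ligand, had 0.60, 6.16 and 2.44 CPM in KO libraries and 5.71, 12.3 and 13.6 CPM in WT libraries, a wide spread with a small overlap (-1.78 ± 0.80). *Tnfsf4*, *Tnfsf18* and *Fasl* are neighbours on chromosome 1, with gaps of 76.2 and 275 kb. *Tnfsf9* (4-1BB ligand) and *Tnfsf8* (CD30 ligand) overlapped, at -0.54 ± 0.38 and 0.28 ± 0.48. They were at 0.00 and 0.05 with both first replicates left out, and *Tnfsf9* was at -0.19 without WT replicate 1.

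Of the least abundant ligands, *Cd40lg*, through which T cells help B cells, had 12, 25 and 6 counts in KO libraries and 4, 3 and 4 in WT libraries and was not tested. *Cd70*, the CD27 ligand, had 0, 0 and 2 counts in KO libraries and 2, 4 and 0 in WT libraries, at about the floor of 3 counts. Both sit at a depth where counting error alone is large.

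Among the co-stimulatory receptors of lymphocytes, *Cd27* was the 1 of 5 (20%) at an unadjusted p under 0.05 by edgeR, beside 11.8% of all genes, so the count says little about the group. It had 2.59, 2.38 and 1.85 CPM in KO libraries and 0.77, 1.23 and 1.40 CPM in WT libraries, with no overlap (1.00 ± 0.39, edgeR unadjusted p 0.0379, adjusted p 0.398, DESeq2 adjusted p 0.214). It was 0.69 with both first replicates left out. *Tnfrsf18* (GITR) was at 0.60 ± 0.39, *Tnfrsf8* (CD30) at 0.37 ± 0.54, *Tnfrsf9* (4-1BB) at -0.22 ± 0.30 and *Tnfrsf4* (OX40) at -0.76 ± 0.51, each with overlapping libraries. *Tnfrsf8* was at -0.02 and *Tnfrsf9* at -0.51 with both first replicates left out. *Tnfrsf4* and *Tnfrsf18* are 9.55 kb apart, and their estimates have opposite signs. The antisense gene Gm16008 covers 27.2% of the exon bases of *Tnfrsf18*, and Gm11110 covers 14.9% of those of *Tnfsf9*, so these values may hold reads of both strands. *Cd40*, the receptor by which antigen-presenting cells receive T cell help, averaged 15.9 ± 2.0 CPM in KO and 14.6 ± 2.0 CPM in WT (SD, n = 3 each), a log2 fold change of 0.13 ± 0.21 (SE). *Tnfrsf14*, or HVEM, had 4.67, 7.08 and 7.89 CPM in KO libraries and 1.66, 5.19 and 6.54 CPM in WT libraries (0.55 ± 0.53, or 0.36 with both first replicates left out).

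Lymphocyte and dendritic cell markers moved with genotype as well. All 18 tested T cell genes had higher estimates in KO, with a summed level of 112.8 to 170.5 CPM in KO and 46.1 to 87.4 CPM in WT. For 12 natural killer cell genes the sums were 59.8 to 70.7 CPM in KO and 14.1 to 29.9 CPM in WT. For 14 B cell genes they were 128.5 to 172.4 CPM in KO and 43.6 to 101.7 CPM in WT, again with every estimate higher in KO. The 13 dendritic cell genes summed to 2804 to 4693 CPM in KO and 751 to 1307 CPM in WT. Much of that sum was *Cd74* (mean 1737 CPM in KO and 451.9 CPM in WT) and *H2-Aa* (710.4 and 173.6 CPM). The dendritic cell gene *Xcr1* averaged 5.72 CPM in KO and 0.744 CPM in WT, so the sum mainly follows the abundant genes. Of 18 macrophage and monocyte genes 15 had lower estimates, with sums of 2526 to 6015 CPM in KO and 6918 to 9834 CPM in WT. A large part of these sums was *Spp1*, with a mean of 2284 CPM in KO and 5927 CPM in WT. The list's mean log2 level, centred for each gene, overlapped: 0.12, -0.11 and -0.72 in KO libraries and -0.03, 0.31 and 0.44 in WT libraries. Of 8 neutrophil genes 6 had lower estimates, with 123.4 to 196.9 CPM in KO and 186.3 to 242.8 CPM in WT. At an unadjusted p under 0.05 edgeR had 15 T cell (83.3%) and 10 natural killer (83.3%) genes higher. It also had 9 B cell (64.3%) and 9 dendritic cell (69.2%) genes higher, beside 5.95% of all genes. Lower at that level were 3 macrophage (16.7%) and 3 neutrophil (37.5%) genes, beside 5.89% of all genes. After adjustment edgeR called 0 genes of these lists. DESeq2 called 11 of 18 T cell, 5 of 12 natural killer, 6 of 14 B cell and 5 of 13 dendritic cell genes. It called 1 of 18 macrophage and 1 of 8 neutrophil genes. Over all genes with an adjusted p, DESeq2 called 3.63%. No gene of these lists was at or below 3 counts in every library. *Ltb*, *Cd27* and *Tnfrsf25* are lymphocyte genes and *Tnfsf13b* is made largely by myeloid and stromal cells, and the part of these shifts in their differences was not tested. In whole tissue, fewer cells of a type and less RNA per cell cannot be told apart.

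As classes, ligands leaned higher in KO and receptors were split. Of 15 tested ligands 10 had higher and 5 lower estimates, and their median was 0.34 on the log2 scale (0.53 without *Tnfsf4*). Of 23 tested receptors 11 were higher and 12 lower, with a median of -0.18, beside -0.01 over all genes tested. Per length, the 17 ligands summed to 72.6 to 90.5 FPKM in KO and 43.6 to 67.1 FPKM in WT. The 24 receptors summed to 292.6 to 380.6 FPKM in KO and 427.8 to 514.4 FPKM in WT. Neither pair of ranges overlapped, but a few genes make up most of each sum: *Tnfsf12*, *Tnfsf10*, *Ltb* and *Tnfsf13b* among ligands, *Tnfrsf12a*, *Tnfrsf1a*, *Ltbr*, *Fas* and *Tnfrsf1b* among receptors. With both first replicates left out the ligand median was 0.03 and the receptor median -0.14. Leaving out WT replicate 3 gave a ligand median of 0.66, and leaving out KO replicate 1 gave a receptor median of 0.06. The difference between the classes was not tested.

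**Figure D3:**
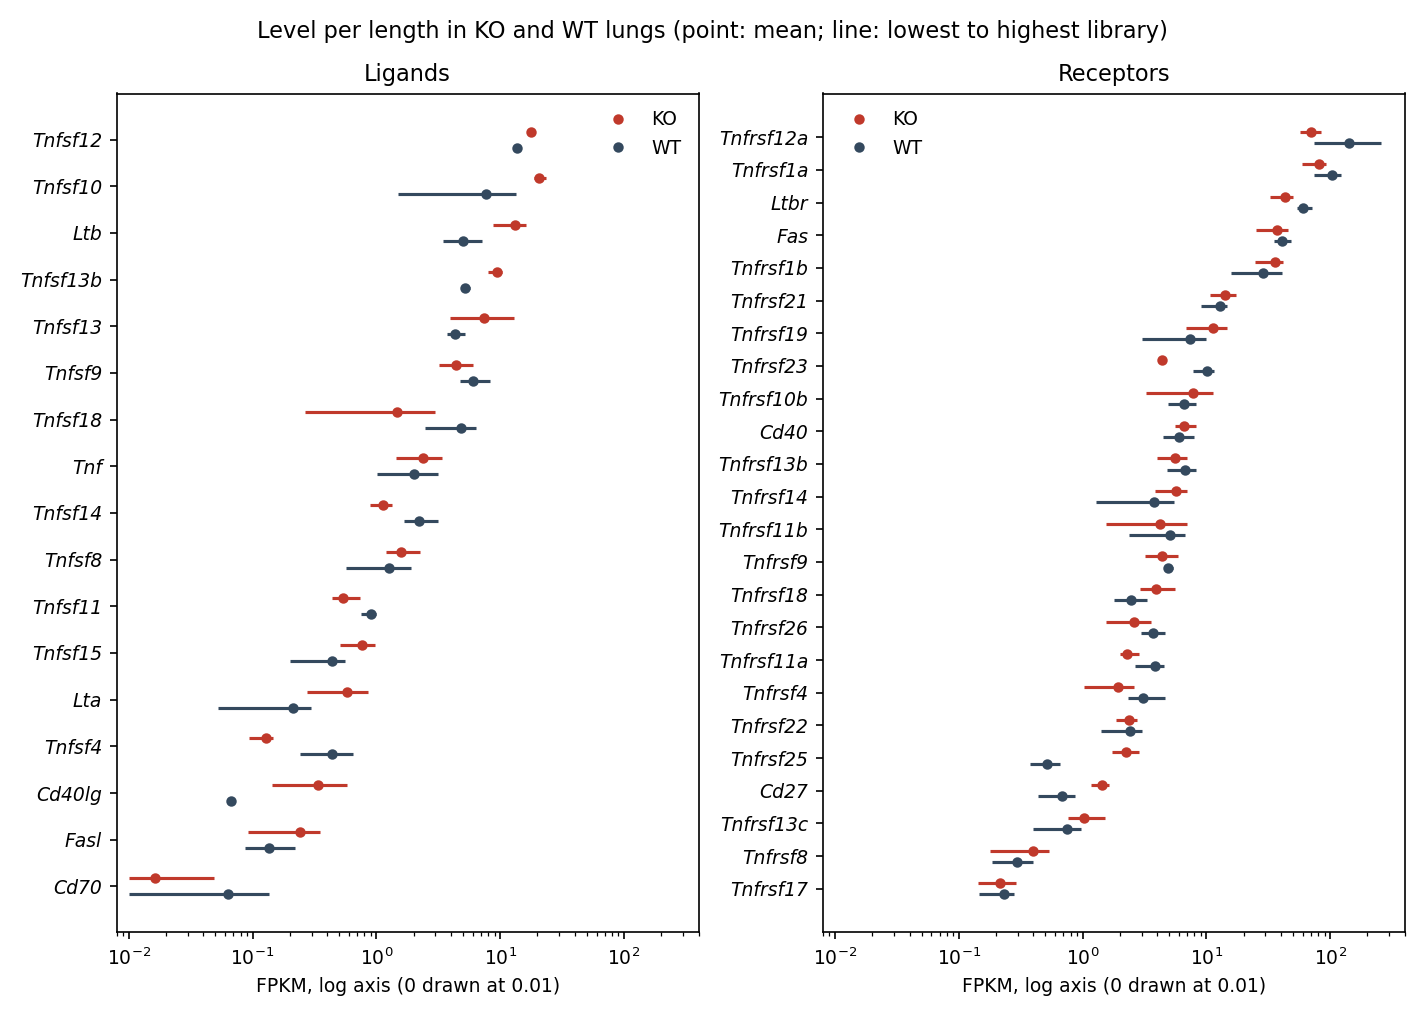
Level per length (FPKM, log x axis) of 17 ligands and 24 receptors, ordered down the page by their mean over all libraries; points are means of 3 KO or 3 WT libraries and lines run from the lowest to the highest library. The 5 highest receptors average 32.3 FPKM or more over all libraries, and the highest ligand, *Tnfsf12*, averages 15.7 FPKM.

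Ratios between members that bind each other, or that share a ligand, were compared within libraries as log2 ratios of normalised counts. The ratio of TRAIL to its death receptor (*Tnfsf10* over *Tnfrsf10b*) was 3.48, 1.72 and 1.36 in KO libraries, against -1.08, 0.96 and 1.33 in WT libraries. The KO values were higher throughout, by 1.79 on average, though KO replicate 3 and WT replicate 3 nearly met. The ratio of TWEAK to its receptor (*Tnfsf12* over *Tnfrsf12a*) was -1.35, -1.17 and -1.68 in KO libraries and -3.81, -2.24 and -1.77 in WT libraries, a difference of 1.21. Each gave p = 0.1 in a 2-sided exact permutation test, the smallest that 3 against 3 allows, and 0.35 when adjusted over the 7 ratios. Both leaned on WT replicate 1, without which the differences were 1.04 and 0.61. The decoys *Tnfrsf22* plus *Tnfrsf23* over *Tnfrsf10b* gave 0.92, -0.20 and -0.77 in KO libraries and 0.91, 1.10 and 0.76 in WT libraries (difference -0.94, exact permutation p = 0.3). The other 4 ratios overlapped between the genotypes, with exact permutation p of 0.2 to 0.5. RANKL over osteoprotegerin (*Tnfsf11* over *Tnfrsf11b*) differed by -0.36, and by 0.20 without WT replicate 1.

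**Figure D4:**
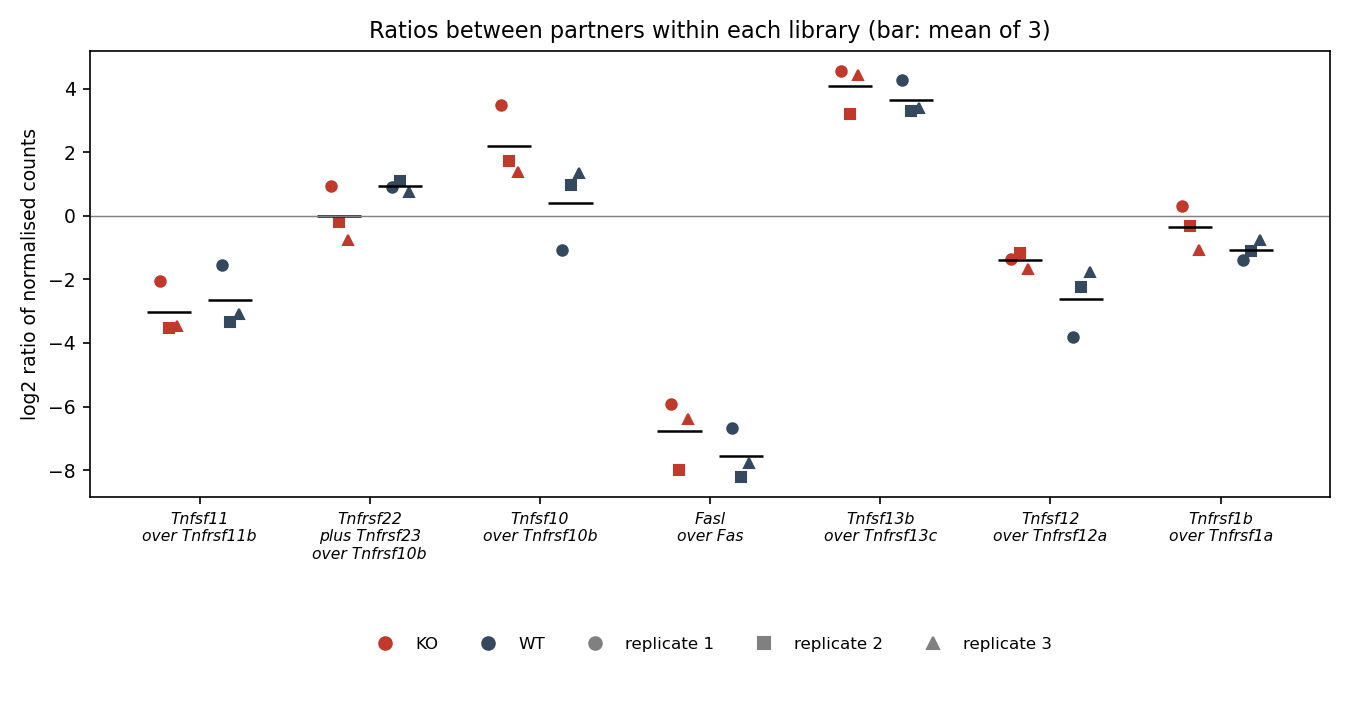
Log2 ratio of normalised counts (y axis) for 7 ratios between members that bind each other or share a ligand, in each KO and WT library, with the mean of 3 as a bar. The KO and WT libraries do not overlap for *Tnfsf10* over *Tnfrsf10b* and *Tnfsf12* over *Tnfrsf12a*, and overlap for the other 5.

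Signalling genes downstream of the receptors were counted beside all genes. Of 32 adaptor and death signalling genes 17 had higher and 15 lower estimates, around a median of 0.02 on the log2 scale, and 4 (12.5%) were at an unadjusted p under 0.05 by edgeR (0 adjusted), close to the 11.8% of all genes. *Traf1*, an adaptor that NF-kB induces, was at 25.3 CPM in KO and 10.3 CPM in WT (1.3 ± 0.29, edgeR adjusted p 0.234, DESeq2 adjusted p 0.00835). The necroptosis kinase gene *Ripk3* was at 14.95 CPM in KO and 25.6 CPM in WT (-0.78 ± 0.23), with an adjusted p of 0.295 by edgeR and 0.118 by DESeq2. Of 18 NF-kB pathway genes 0 had an unadjusted p under 0.05, and *Nfkbia*, the inhibitor that NF-kB induces, was at 0.48 ± 0.71.

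Among 22 NF-kB response genes, 2 (9.09%, beside 11.8% of all genes) had an unadjusted p under 0.05 by edgeR. They were the monocyte chemokine gene *Ccl2* (20.2 CPM in KO and 64.4 CPM in WT, -1.67 ± 0.25, edgeR adjusted p 0.203, DESeq2 adjusted p 1.32e-05) and the neutrophil chemokine gene *Cxcl5* (1.48 ± 0.57). Of 9 tested stromal genes that lymphotoxin can induce, 2 (22.2%) had an unadjusted p under 0.05, 1 in each direction. The T cell zone chemokine gene *Ccl19* was at 1.06 CPM in KO and 0.24 CPM in WT (2.12 ± 0.52, DESeq2 adjusted p 0.028). The B cell zone chemokine gene *Cxcl13* was at 20.7 CPM in KO and 106.2 CPM in WT (-2.36 ± 0.74, DESeq2 adjusted p 0.0188). Their edgeR adjusted p were 0.244 and 0.311. Of 7 tested proteases and inhibitors that govern ligand release, 1 (14.3%, beside 11.8% of all genes) had an unadjusted p under 0.05, namely *Furin*, which cuts BAFF, APRIL and TWEAK from their precursors (181.2 CPM in KO and 340.6 CPM in WT, -0.91 ± 0.35, edgeR adjusted p 0.392). *Adam17*, which releases TNF, was at 0.38 ± 0.27. The 6 superfamily genes outside the naming rule, such as *Eda2r* (-0.64 ± 0.33), had 0 at that level.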

How the data were processed

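Lung RNA of 3 KO and 3 WT mice was sequenced 14 days after bleomycin. TRIzol and an NEBNext Ultra kit were used, per the labels' protocols, and strand handling is not given in the sources used here. Per the submitters' processing notes, HISAT2 2.0.4, StringTie 1.3.4d and GRCm38 were used, with no role stated for each. The authors deposited raw counts, whole numbers for each gene. The FPKM values were deposited by the authors for the same rows. A suffix on the KO column names of that table is unexplained, and they carry no replicate number here.

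Counts were tested with edgeR 4.0.16 (R 4.3.3): filterByExpr, TMM and a robust quasi-likelihood fit on genotype alone, 2-sided, adjusted over the 16633 of 26100 rows tested. SE is the size of the log2 fold change divided by the root of F, so it holds no information beyond p. Alternatives were DESeq2 1.42.0, limma-voom (limma 3.58.1), other scaling and filters, FPKM values tested with limma on log2(FPKM + 1) or log2(FPKM + 0.1), the replicate block and each library left out. Leaving out both first replicates was added after seeing the data. Ratios used log2 counts with a prior count of 2. Positions are from GENCODE M21 (GRCm38), which held all 42 members.

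Members, lists and roles were chosen with earlier results of these data known. Named members were those at an unadjusted p under 0.05, filled to 5 per direction, and those of the ratios; in lists, up to 3 of smallest p and the 2 of highest CPM, of which 1 gene is not reported here. Other members are given by values or counts. The edgeR steps were tested on simulated counts, where 6% of 2-fold and 48% of 4-fold changes were called at an adjusted p under 0.05. The labels give a replicate number per group but do not say that it pairs mice. The p-values reflect only how these 6 samples spread. Libraries held 31052936 to 34451956 counts.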

Additional observations from a re-analysis of the deposited data

How the results depend on the processing

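Of 39 tested members, 30 kept their direction under all alternatives run on them (up to 16) and 9 turned in at least 1. edgeR called 0 genes and 0 members; DESeq2 called 678 genes and 4 members, and limma-voom and the FPKM fits called 0 of either. With each library left out in turn, edgeR called 0 to 3 genes and 0 members, 1080 to 2642 genes and 6 to 8 members had an unadjusted p under 0.05 (1968 and 8 with all libraries), and medians ran from 0.30 to 0.66 for ligands, -0.23 to 0.06 for receptors and -0.87 to -0.10 for decoys. Without both first replicates, edgeR called 46 genes (0.275%) and 1 member (*Tnfrsf23*), 5029 genes (30% of those tested) and 13 members (34.2%) had an unadjusted p under 0.05, and the ligand median was 0.03. In that fit the log2 fold changes of *Tnf*, *Tnfrsf8* and *Tnfrsf1b* turned to -0.09, -0.02 and -0.14. On the FPKM scale *Tnfrsf22* was at 0.02 with a pseudocount of 1, with or without the filter, and at 0.05 with 0.1. Leaving out single libraries gave -0.87 to 0.06 for *Tnfrsf11b*, -0.33 to 0.01 for *Fas*, -0.06 to 0.66 for *Tnfsf8*, -0.11 to 0.66 for *Tnf*, -0.09 to 0.23 for *Tnfrsf21*, -0.20 to 0.53 for *Tnfrsf10b* and -0.01 to 0.57 for *Tnfrsf1b*. The ratio of *Tnfsf11* to *Tnfrsf11b* ran from -0.84 to 0.20, and the other 6 ratios kept their sign. The cause of these shifts was not tested.

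Whether the replicate numbers pair the samples is not settled. Same-numbered deviations correlated at 0.35, 0.35 and -0.10, and differently numbered ones at -0.51 to 0.47. With the replicate block, edgeR called 0 genes and 0 members, and 3387 genes (20.4%) and 11 members had an unadjusted p under 0.05. Paired sign flips of the ratios gave exact p of 0.25 or 0.5. Counting error limits mainly *Cd40lg*, *Cd70*, *Tnfrsf17*, *Fasl*, *Lta* and *Tnfsf4*. The KO libraries had 9, 9 and 6 counts of *Tnfsf4*, and its log2 fold change ran from -2.15 to -0.34 over 14 alternatives.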

Other observations

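Markers of the structural cells that carry many of the receptors spread widely within each genotype. The 12 type 2 alveolar genes all had higher estimates in KO (median log2 fold change 0.95), and 9 of 10 type 1 alveolar genes did (median 0.55), with summed levels of 2945 to 9395 CPM in KO and 2337 to 7214 CPM in WT for the type 1 genes. Of 13 fibroblast and myofibroblast genes 10 had lower estimates (median -0.31), at 2672 to 14450 CPM in KO and 5500 to 21450 CPM in WT. The list's 2 genes called by DESeq2 were higher, *Dpp4* (1.53 ± 0.21, DESeq2 adjusted p 5.99e-06) and *Tcf21* (1.3 ± 0.21, DESeq2 adjusted p 1.43e-04), and *Acta2* was at -1.39 ± 0.45 (DESeq2 adjusted p 0.0581). Endothelial genes had a median of 0.22 and airway genes 0.08. Plasma cell genes summed to 519.7 to 545.5 CPM in KO and 477.8 to 779.6 CPM in WT, with a median of -0.07. edgeR called 0 genes of these lists after adjustment. DESeq2 called 1 of 10 type 1 alveolar, 2 of 12 type 2 alveolar, 2 of 13 fibroblast and 2 of 12 endothelial genes. It called 0 of 11 airway and 0 of 8 plasma cell genes, beside 3.63% of all genes. The part of these cells in the receptor levels was not tested.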
